A study of Mus musculus with 6 samples.

Results

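The genes described here encode fibroblast growth factors (Fgf8, Fgf9, Fgf20 and Fgf10), their receptors (Fgfr1, Fgfr2 and Fgfrl1) and the Sprouty proteins (Spry1, Spry2 and Spry4), 10 genes in all. Chromatin accessibility at these genes was taken from ATAC-seq of mouse nephron progenitor cells, in which the transposase Tn5 inserts adapters into open DNA and the count in a region reflects how open it was. A region of the deposited table belonged to a gene if its midpoint lay in the gene body or within 50 kb of it in mm10. By this rule 41 of the 43523 distinct regions were members. The progenitors came from CD1 mice, with no engineered allele or treatment named in the labels, at E14.5 (3 libraries) or on the day of birth, P0 (3 libraries). Each library was made from 50000 cells of the pooled kidneys of a litter, selected on beads carrying antibodies to Itga8, an integrin on the surface of these cells. Litters and not single animals were the replicates, and the purity of the cells after selection was not analysed here.

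FGF ligands are secreted proteins that bind receptor tyrosine kinases together with heparan sulfate, and the receptors signal through adaptors to the Ras and MAP kinase cascade. Sprouty proteins are made in response to this cascade and restrain it, which closes a negative feedback loop. In the developing kidney Fgf9 and Fgf20 are known for keeping nephron progenitors undifferentiated and alive, Fgf8 for the survival of cells that form nephrons, and Fgf10 for the growth of the ureteric epithelium.

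The member genes differed in how much DNA around them was open. Fgfrl1 held 10 regions, Fgf20 6, Fgf10 and Spry2 5 each, Fgfr1 4, Fgfr2 and Spry1 3 each, Fgf9 and Spry4 2 each, and Fgf8 1. Of the 41 regions, the table listed 9 as promoters of the member gene and 10 as promoters of other genes, while 22 were no promoters, 13 of these inside a gene outside its exons and 9 between genes. Promoters made up 46.3% of the members and 32.4% of all regions. Accessibility is given as CPM, a count scaled to the TMM-adjusted size of its library. The median was 9.0 CPM per kb of region among members and 8.89 CPM per kb over all regions. The member farthest from its gene lay 49.9 kb outside Spry2, and the nearest region that missed the 50 kb limit lay 60.1 kb outside Fgf20, with 10.2 CPM at E14.5 and 13.0 CPM at P0.

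Promoter sequence upstream of the RefSeq gene start (GRCm38.p6, the assembly of mm10) was available here for 6 of the 10 genes. Of these, 4 are shown because they differ in whether a region covered them. At Fgf10, Spry2 and Fgfrl1 all 250 bases lay inside a region, and at Fgf9 no base did. Each sequence runs 5′ to 3′ on the gene's strand and ends at the base before the gene start, and capitals mark CpG dinucleotides, the target of DNA methylation in mammals.
Fgf10 (chr13:118714449-118714698, plus strand): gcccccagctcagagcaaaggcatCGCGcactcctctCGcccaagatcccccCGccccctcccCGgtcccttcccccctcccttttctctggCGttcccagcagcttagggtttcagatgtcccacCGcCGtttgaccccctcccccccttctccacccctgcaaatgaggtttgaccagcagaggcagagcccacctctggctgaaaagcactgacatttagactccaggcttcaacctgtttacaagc
Spry2 (chr14:105896820-105897069, minus strand): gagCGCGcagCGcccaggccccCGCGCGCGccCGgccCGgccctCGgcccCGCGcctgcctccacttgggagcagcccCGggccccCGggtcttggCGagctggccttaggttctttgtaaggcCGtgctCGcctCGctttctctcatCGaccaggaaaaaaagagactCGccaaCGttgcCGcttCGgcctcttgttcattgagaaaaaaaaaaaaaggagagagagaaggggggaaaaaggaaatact
Fgfrl1 (chr5:108693979-108694228, plus strand): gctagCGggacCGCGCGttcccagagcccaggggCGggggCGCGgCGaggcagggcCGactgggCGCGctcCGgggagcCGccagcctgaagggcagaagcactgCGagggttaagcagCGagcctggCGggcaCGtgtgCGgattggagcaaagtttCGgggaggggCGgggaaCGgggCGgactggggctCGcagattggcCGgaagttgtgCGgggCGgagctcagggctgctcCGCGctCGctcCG
Fgf9 (chr14:58072436-58072685, plus strand): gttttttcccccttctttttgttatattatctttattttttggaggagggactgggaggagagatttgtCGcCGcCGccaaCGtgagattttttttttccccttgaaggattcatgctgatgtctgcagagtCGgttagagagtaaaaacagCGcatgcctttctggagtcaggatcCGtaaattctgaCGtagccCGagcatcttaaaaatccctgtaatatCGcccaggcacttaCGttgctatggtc

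These 250 bases held 30 CpG at Fgfrl1, 23 at Spry2, 11 at Fgf9 and 8 at Fgf10, against a median of 6 over the 32851 promoters of the RefSeq table. GC content was 73.6% at Fgfrl1, 62.4% at Spry2, 61.2% at Fgf10 and 44.8% at Fgf9. Upstream of Spry1 there were 23 CpG with all 250 bases in a region, and upstream of Fgfr2 only 2 CpG with no base in a region, the nearest region lying downstream of the start. The ETS motif CCGGAAG, read on both strands, was found in 6.91% of all promoter windows and among the 6 member genes in Fgfrl1 alone, starting at position -48 from the gene start. The motifs AGGTTTC (Six2 and its relatives), CTTTGAT (TCF/LEF) and TGANTCA (AP-1), also read on both strands, were in none of the 6 windows and in 3.96%, 3.21% and 6.75% of all windows. A match describes letters and is not a measured binding site.

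Counts in regions totalled 6492996 to 12292629 per library, and the members took 0.0761% to 0.102% of them, with at least 22 counts in every member region of every library. Promoter regions were present for 7 of 10 nephron progenitor markers (Six2, Cited1, Eya1, Osr1, Sall1, Wt1 and Itga8, but not Meox1, Crym or Tmem100), 3 of 8 stromal, 4 of 8 ureteric, 1 of 7 endothelial and 1 of 7 blood markers. The summed progenitor promoters ran from 209 to 214 CPM at E14.5 and from 178 to 238 CPM at P0, and no marker region passed the test below. At E14.5 and at P0, the summed promoters ran from 118 to 140 and from 102 to 122 CPM for ureteric, from 19.8 to 29.6 and from 22.7 to 31.2 CPM for endothelial, and from 1.93 to 2.73 and from 1.18 to 3.18 CPM for blood markers. For committed nephron cells, with 3 of 7 markers, they ran from 109 to 122 and from 102 to 138 CPM. The stages overlapped in every list. The labels call the replicates biological, each from a litter.

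Across the 41 regions, 2 differed between P0 and E14.5 in edgeR's quasi-likelihood test (Benjamini-Hochberg adjustment over all regions, threshold 0.05), both at Fgf10 and both less open at P0. That is 4.88% of the members, while 4.73% of all 43523 regions passed in either direction and 2.94% passed as lower at P0. Outside promoters the count was 2 of 22 members, where 6.59% of all such regions passed. At an unadjusted p under 0.05 there were 9 of 41, or 22.0%, against 18.7% of all regions. In 8 members, 4 higher and 4 lower at P0, the libraries of one stage all lay on one side of the other stage, which is 19.5% against 24.2% of all regions. Over all 41 members these shares lay close to those of the whole table. Promoters, of which 0.851% passed over the whole table, made up more of the members than of all regions. Outside promoters, 8 of 22 members (36.4%) had an unadjusted p under 0.05, against 23.5% of all such regions. There the stages lay apart in 7 of 22 (31.8%), against 27.8%. The log2 fold changes of members ran from -1.25 to 0.94, with a median of -0.02 beside 0.01 over all regions, and 20 were above 0 and 21 below.

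**Figure D1:**
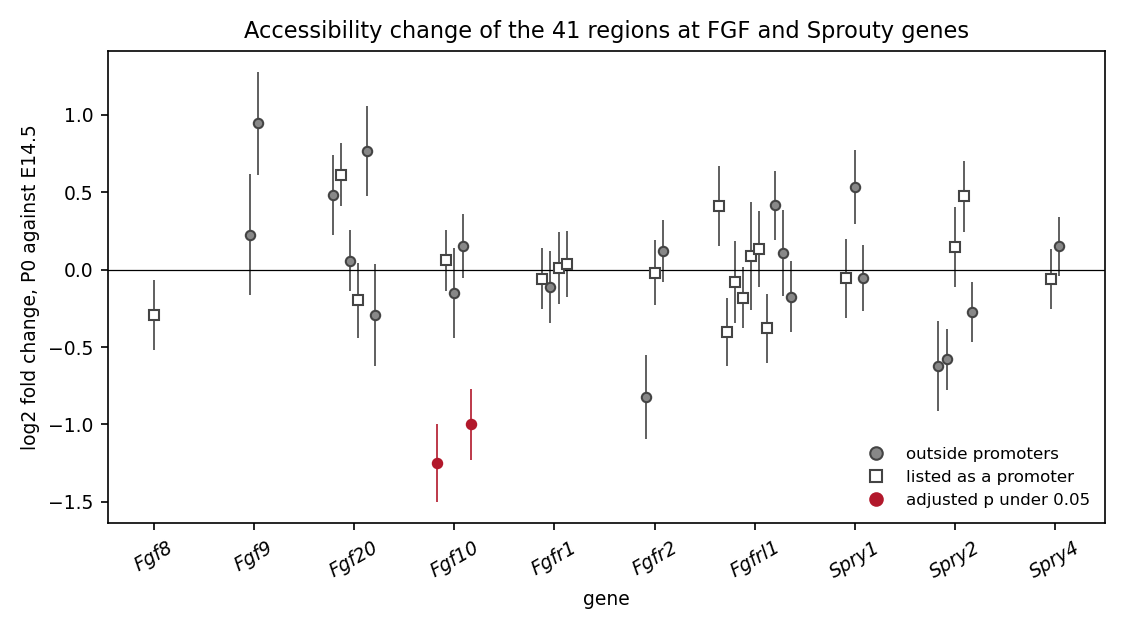
Log2 fold change in accessibility (P0 against E14.5) of each of the 41 regions, by gene, with the standard error of the edgeR fit as the bar. Squares are regions listed as a promoter of any gene, circles are other regions, and the 2 red points at Fgf10, at -1.25 and -1.0, passed an adjusted p of 0.05.

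Fgf10 is a ligand made by mesenchymal cells for the epithelial form of Fgfr2, and its locus held the differences that passed. The first lay on chromosome 13 from 118678453 to 118680214, with its midpoint 35.4 kb upstream of the RefSeq gene start. The table places it in Fgf10 (ENSMUSG00000021732), outside its exons, although the RefSeq gene does not reach it, and the nearest other protein-coding gene, Mrps30, ends 292 kb away. It had 12.6, 18.9 and 21.0 CPM at E14.5 (replicates 1 to 3 in order) and 7.60, 6.05 and 8.29 CPM at P0 (in the same order). Every E14.5 library was above every P0 library. Its accessibility was 17.5 ± 4.40 CPM at E14.5 and 7.31 ± 1.14 CPM at P0 (SD, n = 3 per stage). The log2 fold change was -1.25 (SE 0.25, edgeR adjusted p = 0.0121).

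The second lay inside the gene body, from 118745377 to 118747272, with its midpoint 31.6 kb downstream of the start and outside the exons. It had 13.8, 14.8 and 17.4 CPM at E14.5 (replicates 1 to 3 in order) and 7.08, 7.26 and 8.53 CPM at P0 (in the same order). The lowest E14.5 library again stood above the highest P0 library. The means were 15.3 ± 1.87 and 7.62 ± 0.787 CPM (SD, n = 3 per stage). The log2 fold change was -1.0 (SE 0.23, edgeR adjusted p = 0.0218). The calls did not hold in every fit that left out a library, while the fold changes stayed of like size. Without E14.5 replicate 3 the upstream region had a log2 fold change of -1.10 (edgeR adjusted p = 0.0991) and the intragenic region -0.90 (edgeR adjusted p = 0.146). Without P0 replicate 1 these were -1.29 (edgeR adjusted p = 0.0604) and -0.96 (edgeR adjusted p = 0.120), and without P0 replicate 2 the intragenic region had -0.97 (edgeR adjusted p = 0.0516). Of all regions, 339, 474 and 1653 passed in these 3 fits, against 2059 with all libraries.

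The promoter region of Fgf10, from 118713018 to 118716916, covers the sequence printed above and was the most open region of the locus. Its libraries had 65.0, 81.0 and 69.2 CPM at E14.5 and 82.8, 66.3 and 75.3 CPM at P0, and the groups overlapped. The means were 71.8 ± 8.29 and 74.8 ± 8.26 CPM (SD, n = 3 per stage). The log2 fold change was 0.06 (SE 0.20, edgeR adjusted p = 0.914). The other 2 regions in the gene body, 6.9 and 17.9 kb downstream of the start, had log2 fold changes of -0.15 (SE 0.29) and 0.15 (SE 0.21), and their groups overlapped too.

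Counts relative to the promoter region of the same library do not depend on the scaling of libraries, but they do depend on the promoter's own count. Over the whole table the median log2 fold change was -0.099 in promoter regions and 0.099 outside them. The upstream region had 19.3%, 23.4% and 30.4% of the promoter's count at E14.5 (replicates 1 to 3 in order) and 9.18%, 9.13% and 11.0% at P0. For the intragenic region the shares were 21.2%, 18.3% and 25.1% at E14.5 and 8.55%, 10.96% and 11.3% at P0. No P0 share reached the lowest E14.5 share in either region. The change of the ratio on the log2 scale was -1.30 and -1.06, and for the regions 6.9 and 17.9 kb downstream it was -0.26 and 0.09. These ratios were chosen after the calls were known and use the same counts, so they are a description with no test.

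**Figure D2:**
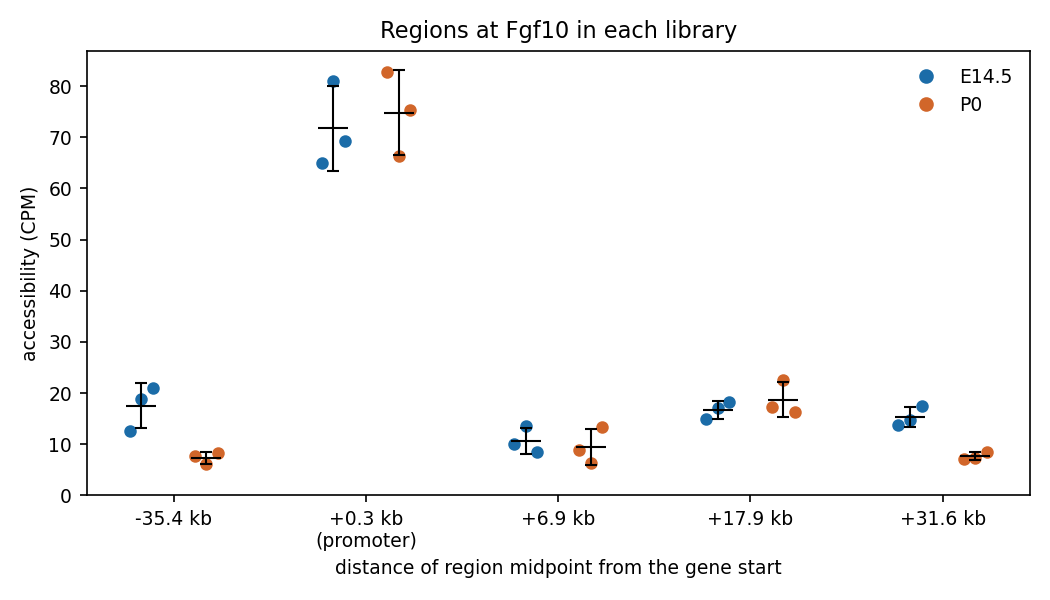
Accessibility in CPM of the 5 regions at Fgf10, ordered by the distance of their midpoints from the gene start, with a point per library and the mean ± SD of each stage. The P0 points lie below all E14.5 points in the regions at -35.4 kb and +31.6 kb, and the stages overlap in the promoter region and in the regions at +6.9 kb and +17.9 kb.

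The table's own motif column listed 6 forkhead matches at 3 separate sites in the upstream Fgf10 region (Foxl2, Foxj2, Foxa3, Foxd3 and Foxc1) and 3 matches at 2 sites in the intragenic region (Foxc2, Foxj2 and Foxf1). It also listed 5 at 2 sites in the region at +6.9 kb and 3 at 1 site in the promoter region, neither of which passed the test, so forkhead names were not limited to the regions that did. Forkhead factors share much of their recognition sequence, so the names at 1 site do not tell which factor could bind. Forkhead names stood in 7 of the 22 members outside promoters (31.8%), and in 23.7% of all regions outside promoters. Fgf10 is expressed by stromal and mesenchymal cells of several organs, so stromal markers are given beside it. The 3 stromal markers with a promoter region (Foxd1, Meis1 and Tbx18) summed to 92.5 to 114 CPM at E14.5 and 81.3 to 119 CPM at P0, with overlapping groups and a median log2 fold change of -0.06. Pdgfra, Pdgfrb, Col1a1, Col3a1 and Ntn1 had no promoter region in the table. In such bulk libraries a smaller share of open cells and less opening per cell cannot be told apart.

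Among the other ligands, Fgf20, which signals within the progenitor population, had a promoter region on chromosome 8 from 40285538 to 40287570. Its libraries had 26.0, 32.1 and 22.5 CPM at E14.5 and 47.2, 38.9 and 37.6 CPM at P0, with every P0 library above every E14.5 library. The means were 26.9 ± 4.82 and 41.2 ± 5.20 CPM (SD, n = 3 per stage). The log2 fold change was 0.61 (SE 0.20), and the difference did not pass the test (unadjusted p = 0.00796, edgeR adjusted p = 0.0997). It was the only promoter of a member gene with groups that did not overlap, 1 of 9, while 16.7% of all promoter regions had stages that lay apart. A region 38.2 kb outside Fgf20, placed by the table in its neighbour Efha2, had 5.55 ± 1.56 CPM at E14.5 and 9.55 ± 1.34 CPM at P0 (SD, n = 3 per stage), without overlap and with a log2 fold change of 0.77 (SE 0.29, edgeR adjusted p = 0.161).

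Between these 2 regions, 21.3 kb outside Fgf20, the promoter listed for ENSMUSG00000098431 was the most open region of the locus, with a log2 fold change of -0.20 (SE 0.24). A region 39.3 kb outside Fgf20 on the other side had 14.1, 32.2 and 17.3 CPM at E14.5 and 31.2, 28.9 and 29.4 CPM at P0. E14.5 replicate 2 alone reached the level of P0 there. The log2 fold change was 0.48 (edgeR adjusted p = 0.341), and without E14.5 replicate 2 it was 0.92 (edgeR adjusted p = 0.0234), the only fit of the 6 leaving out a library in which it passed. This region falls outside the rule for named regions and was chosen after its values were seen. The remaining 2 members at Fgf20, 9.3 and 44.4 kb outside it, had log2 fold changes of 0.06 (SE 0.20) and -0.29 (SE 0.33).

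Fgf9, a ligand made by progenitors and ureteric epithelium, had no region at its start, whose 250 bases are printed above. A region of 617 bp inside the gene, 31.6 kb downstream of the start and outside the exons, had few counts, from 23 to 95 per library. It gave 3.68, 4.99 and 2.69 CPM at E14.5 and 8.85, 5.60 and 7.5 CPM at P0. All P0 libraries were above the E14.5 libraries, and the log2 fold change of 0.94 (SE 0.33) was the highest of all members but did not pass (unadjusted p = 0.0121, edgeR adjusted p = 0.125). The only other region, 40.7 kb outside the gene, had a log2 fold change of 0.23 (SE 0.39).

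Fgf8 had no region in its body or at its start. Its single member, 40.9 kb away on chromosome 19, was the promoter of Mgea5, which encodes an enzyme that removes a sugar from proteins. That region had 34.3 ± 8.27 CPM at E14.5 and 27.8 ± 6.20 CPM at P0 (SD, n = 3 per stage; log2 fold change -0.29, SE 0.23, edgeR adjusted p = 0.540). No region of the table within 50 kb overlapped Fgf8 itself.

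At the receptors no region passed. Fgfr1 and Fgfr2 are the kinase receptors of the progenitors, and Fgfrl1 is a receptor that lacks the kinase domain and is needed to form nephrons. The Fgfr1 promoter region on chromosome 8, from 25518590 to 25520321, had 21.5 ± 1.97 CPM at E14.5 and 20.6 ± 3.32 CPM at P0 (SD, n = 3 per stage; log2 fold change -0.06, SE 0.20). An intragenic Fgfr1 region that the table marks as a VISTA element, a sequence tested for enhancer activity in mouse embryos, had 10.3 ± 1.08 and 9.51 ± 0.544 CPM (SD, n = 3 per stage; log2 fold change -0.11, SE 0.23). It was the only member with such a mark. The remaining 2 Fgfr1 members were promoters of its neighbours D830025C05Rik and Whsc1l1, with log2 fold changes of 0.01 and 0.04.

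Fgfr2 had a promoter region of 18.9 ± 2.81 CPM at E14.5 and 18.5 ± 3.53 CPM at P0 (SD, n = 3 per stage; log2 fold change -0.02, SE 0.21). Inside the gene, 32.9 kb downstream of its start on chromosome 7 (130233201 to 130234575), a region had 10.9, 9.28 and 16.7 CPM at E14.5 and 7.18, 6.66 and 6.95 CPM at P0. All P0 libraries lay below the E14.5 libraries and close to each other. The log2 fold change was -0.82 (SE 0.27, unadjusted p = 0.00850, edgeR adjusted p = 0.103), and it passed in 1 of the 6 fits that left out a library. Without E14.5 replicate 2 the log2 fold change was -1.0 (edgeR adjusted p = 0.0467), and without E14.5 replicate 3 it was -0.54 (edgeR adjusted p = 0.501). A region 12.0 kb upstream of the start had 19.5 ± 1.16 CPM at E14.5 and 21.1 ± 4.07 CPM at P0 (SD, n = 3 per stage; log2 fold change 0.12, SE 0.20). The table lists matches to Meis1 and Smad2 in it.

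The Fgfrl1 promoter region on chromosome 5, from 108693838 to 108696175, had 71.9, 53.3 and 75.3 CPM at E14.5 and 58.2, 38.7 and 56.7 CPM at P0. The groups overlapped, and the log2 fold change was -0.38 (SE 0.22, edgeR adjusted p = 0.388). A region inside the gene, 7.0 kb downstream of the start, had 15.1 ± 2.56 CPM at E14.5 and 20.1 ± 3.97 CPM at P0 (SD, n = 3 per stage; log2 fold change 0.42, SE 0.22, edgeR adjusted p = 0.340). Of the 10 Fgfrl1 members, 5 were promoters of the neighbours Dgkq, Idua and Slc26a1, with log2 fold changes from -0.40 to 0.41. A second region listed as a promoter of Fgfrl1 itself, 2.0 kb upstream of the start, had a log2 fold change of 0.13 (SE 0.25). The last 2, beyond the 3′ end at 11.4 and 20.1 kb outside the gene, had log2 fold changes of 0.11 (SE 0.28) and -0.17 (SE 0.23), and the nearer of them was the only member outside promoters with a listed match to Six2.

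Spry2 had the most open promoter of the member genes. Its region on chromosome 14, from 105896042 to 105898078, had 72.5, 73.0 and 84.3 CPM at E14.5 and 91.4, 50.4 and 112 CPM at P0. The P0 libraries spread on both sides of the E14.5 libraries, and the log2 fold change was 0.15 (SE 0.26, edgeR adjusted p = 0.819). A second region listed as its promoter, 2.2 kb upstream of the start, had 18.7 ± 2.10 and 25.8 ± 7.56 CPM (SD, n = 3 per stage; log2 fold change 0.47, SE 0.23, edgeR adjusted p = 0.282). Beyond the 3′ end, 20.9 kb outside the gene, a region had 21.2, 20.6 and 23.5 CPM at E14.5 and 12.9, 14.1 and 16.6 CPM at P0. The stages did not overlap there, and the log2 fold change of -0.58 (SE 0.20) did not pass (unadjusted p = 0.0104, edgeR adjusted p = 0.116). Farther out, 49.9 kb from the gene, a region had 10.1 ± 3.24 CPM at E14.5 and 6.61 ± 0.699 CPM at P0 (SD, n = 3 per stage; log2 fold change -0.62, SE 0.29, edgeR adjusted p = 0.264). On the upstream side, 24.1 kb away, a region marked as a FANTOM enhancer had a log2 fold change of -0.27 (SE 0.19, edgeR adjusted p = 0.495).

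Spry1, which is known to restrain Ret signalling in the ureteric bud, had a promoter region of 18.8 ± 3.80 CPM at E14.5 and 17.9 ± 6.08 CPM at P0 (SD, n = 3 per stage; log2 fold change -0.05, SE 0.26). The table lists a match to Six2, the transcription factor that maintains nephron progenitors, in that region. Six2 was named in 1 of the 19 member promoters and 1 of the 22 other members, against 1.53% of all promoters and 3.19% of all other regions. A region 9.4 kb outside Spry1, which overlaps a FANTOM enhancer in the table, had 9.11 ± 1.57 CPM at E14.5 and 13.2 ± 1.98 CPM at P0 (SD, n = 3 per stage), without overlap of the stages (log2 fold change 0.53, SE 0.24, edgeR adjusted p = 0.239). The other region, 22.6 kb away, had a log2 fold change of -0.05 (SE 0.21).

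At Spry4 the nearest region, with its midpoint 0.31 kb outside the gene, was listed as the promoter of its neighbour Arhgap26. It contains the end of Spry4 with the higher coordinate and shares 1158 bp with the gene. The start of Spry4 was not among the gene starts used here, so whether the region covers it was not determined. The region had 34.9 ± 2.50 CPM at E14.5 and 33.4 ± 5.36 CPM at P0 (SD, n = 3 per stage; log2 fold change -0.06, SE 0.19). The second member, 30.4 kb outside Spry4 and within Arhgap26, had 24.7 ± 3.39 and 27.3 ± 3.05 CPM (SD, n = 3 per stage; log2 fold change 0.15, SE 0.19). The table assigned both to Arhgap26. FANTOM enhancers, mapped from RNA made at enhancers, overlapped 6 of the 41 members, among them both regions at Spry4, and 9.65% of all regions. Of the 19 promoter regions among the members, 10 were promoters of other genes. Names of E2f factors, which act in the cell cycle, stood in 10 of the 19 (52.6%) and in 33.6% of all promoters. Promoters of member genes (such as Spry1) and of other genes (such as Mgea5) were among them. A name of any factor stood in 78.9% of the 19 and in 69.4% of all promoters. Meis1 stood in 3 of the 22 other members (13.6%) and in 5.64% of all regions outside promoters.

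Per kb of region, the 7 promoter regions of member genes could be set in order over all 6 libraries. The level was 39.6 CPM per kb at Spry2, 25.2 at Fgfrl1, 18.8 at Fgf10, 16.7 at Fgf20, 12.2 at Fgfr1, 9.86 at Fgfr2 and 9.12 at Spry1. Among all regions these levels stood between the 52.6th percentile (Spry1) and the 97.0th (Spry2). The ranges over the 6 libraries overlapped between each promoter and the next in this order. Within a library, Spry2 was above Fgfrl1 and Fgfr1 above Fgfr2 in 6 of 6, Fgfrl1 above Fgf10 in 5 of 6, and each other promoter above the next in 4 of 6. Spry2, with a lowest library of 24.7 CPM per kb, lay above every library of Fgf10 (highest 21.2), Fgf20 (23.2), Fgfr1 (14.1), Fgfr2 (11.7) and Spry1 (11.5). The order was the same at both stages except for Fgf20 and Fgf10. At E14.5 Fgf20 had 13.2 and Fgf10 18.4 CPM per kb, and at P0 Fgf20 had 20.3 and Fgf10 19.2.

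**Figure D3:**
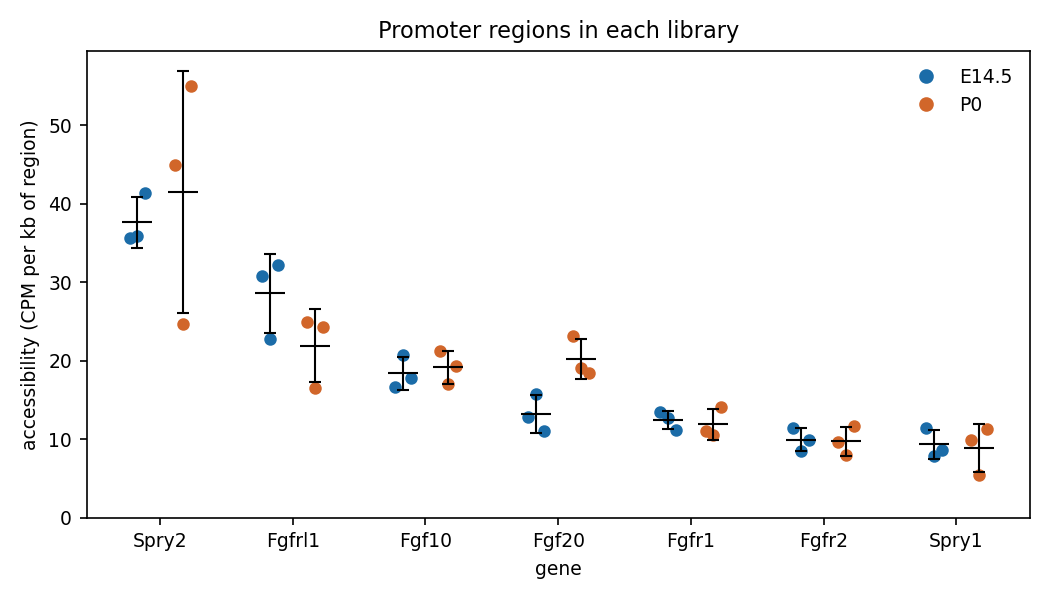
Accessibility of the promoter regions of 7 member genes in CPM per kb of region, with a point per library and the mean ± SD of each stage, ordered by the mean over all libraries. Fgf20 is the only gene whose P0 points all lie above its E14.5 points, and its edgeR adjusted p was 0.0997.

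Summed over the regions of a gene, accessibility at Fgf9 was 8.86 ± 3.15 CPM at E14.5 and 13.2 ± 0.575 CPM at P0 (SD, n = 3 per stage), and it was the only locus whose stages did not overlap. The sums of the other 9 loci had ratios of P0 to E14.5 from 0.811 at Fgf8 to 1.11 at Fgf20, with overlapping stages. At Fgf10 the sum was 132 ± 14.7 CPM at E14.5 and 118 ± 8.19 CPM at P0 (SD, n = 3 per stage), most of it from the promoter region. These sums carry no test.

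The wider pathway was described with a list of 60 other genes, of which 59 had a region within 50 kb, giving 240 regions outside the members. In the edgeR fit 7 of the 240 passed (2.92%, against 4.73% of all regions), 4 higher and 3 lower at P0, and the median log2 fold change was -0.03. All 7 were among the 112 pathway regions outside promoters (6.25%), where 6.59% of all such regions passed. By role, 2 of 44 regions passed at other ligands, 0 of 20 at other receptors and co-receptors, 3 of 44 at genes of heparan sulfate, 1 of 74 at adaptors and kinases, 0 of 42 at other feedback genes and 1 of 16 at target transcription factors. At an unadjusted p under 0.05 there were 31 of the 240 (12.9%, against 18.7% of all regions), made up of 7 at ligands, 2 at receptors, 8 at heparan sulfate genes, 4 at adaptors and kinases, 6 at feedback genes and 4 at targets. Without E14.5 replicate 3, or without P0 replicate 1, 1 of the 240 passed.

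Fgf7, which like Fgf10 is a ligand of the epithelial form of Fgfr2, held a region inside the gene on chromosome 2 (126060637 to 126062651) with 18.9, 22.8 and 22.7 CPM at E14.5 and 9.89, 12.1 and 9.47 CPM at P0. It was lower at P0 in each library (log2 fold change -1.04, SE 0.21, edgeR adjusted p = 0.0118). Etv1, an ETS factor induced by FGF signalling, held the largest fold change of the 7, in a region inside the gene on chromosome 12 (38843402 to 38844413). It fell from 47.1 ± 5.40 CPM at E14.5 to 16.9 ± 3.96 CPM at P0 (SD, n = 3 per stage; log2 fold change -1.47, SE 0.21, edgeR adjusted p = 0.00248).

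The region at Fgf1 rose from 11.7 ± 1.48 CPM at E14.5 to 28.1 ± 7.28 CPM at P0 (SD, n = 3 per stage; log2 fold change 1.27, edgeR adjusted p = 0.00657). Of the heparan sulfate genes, Ext1, a polymerase of the chain, held a region in its body that rose (log2 fold change 0.91, edgeR adjusted p = 0.0217) and a region 24.5 kb outside it that fell (log2 fold change -1.29, edgeR adjusted p = 0.0181). Hs6st1, which adds sulfate to the chain, held a region that rose (log2 fold change 0.96, edgeR adjusted p = 0.0212), and so did Sos1, which loads Ras with GTP (log2 fold change 1.04, edgeR adjusted p = 0.0345).

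**Figure D4:**
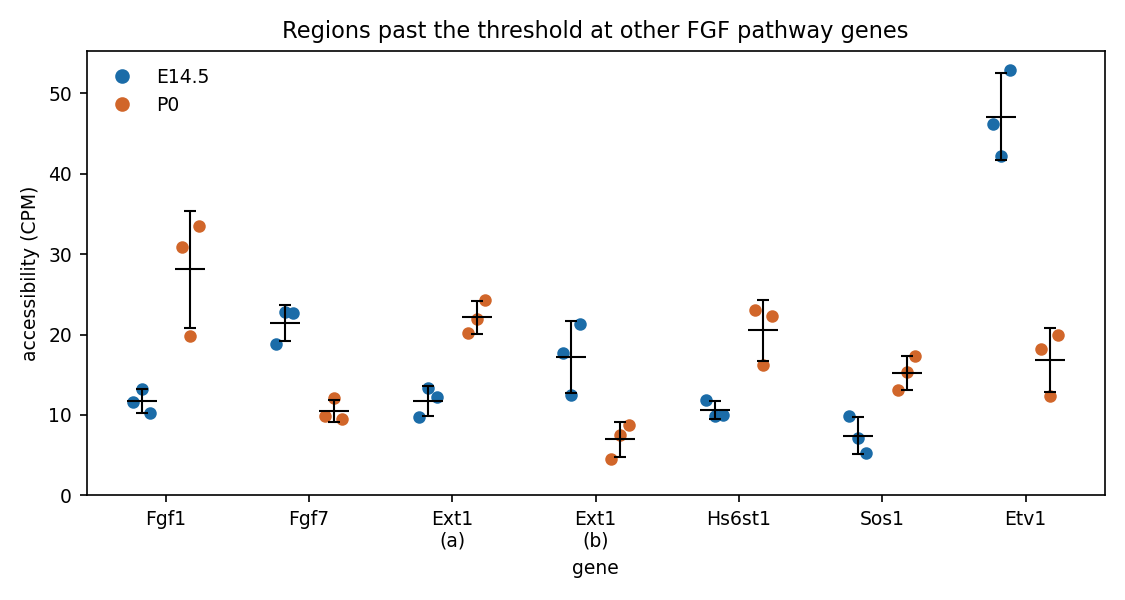
Accessibility in CPM of the 7 regions at other FGF pathway genes that passed an adjusted p of 0.05, with a point per library and the mean ± SD of each stage. Ext1 (a) lies in the gene body and Ext1 (b) 24.5 kb outside it, and in all 7 the stages do not overlap.

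The authors' deposited table classed all 41 members as stable. For the upstream and the intragenic Fgf10 region the authors' deposited table gave log2 fold changes of -1.07 and -0.89 with adjusted p-values of 0.108 and 0.110.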

How the data were processed

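ATAC-seq counts of 3 E14.5 and 3 P0 libraries were read from the deposited table, in which, per the file headers, each library has a whole-number count per region. The build is mm10, per the submitters' processing notes. The aligner, peak caller, counting rule, Tn5 read shift and removal of duplicates are not given in the sources used here, and their effect on the counts was not assessed. Replicates were called biological and pooled per litter, per the labels' protocols. The authors' deposited table also holds their own log2 fold change, a score (t statistic) and a p-value with its adjusted value, from a model not given in the sources used here.

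Of 45489 rows, 1966 repeated a region with the same values, which left 43523. All columns of sample values were matched by library title. Gene bodies came from the RefSeq gene table, and gene starts from the RefSeq promoter table, which holds 6 of the 10 genes. For the others the promoter region was the region that the deposited table lists as that gene's promoter, which departs from the planned rule and gives none for Spry4 and Fgf8, although a region listed for Arhgap26 overlaps an end of Spry4. Named regions were those past the threshold, the promoter region, and, outside it, the region highest per kb and the region with the smallest p at each gene; further regions are described to account for every member, with their values already seen. The members, marker lists and pathway list were chosen with earlier results of these data known. Promoter and gene classes, motif names and FANTOM and VISTA marks are those of the deposited table, with thresholds not given in the sources used here.

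Regions were tested with edgeR 4.0.16 (R 4.3.3) on the deposited counts, with TMM scaling, filterByExpr (0 regions removed), the quasi-likelihood F test on a model of stage alone, and Benjamini-Hochberg adjustment over all regions at 0.05. SE is the log2 fold change divided by the root of F, and intervals use the t quantile at the fit's 15.0 degrees of freedom. The groups-apart counts used log2 CPM with a prior count of 1. On simulated counts for 43523 regions with 200 changed 2-fold, the fit called 54 of the 200 (27.0%) and 8 unchanged regions. Alternatives were DESeq2 1.42.0 (size factors, Wald test), limma 3.58.1 (voom), total-count scaling, other filters and windows, a replicate block, and leaving out each library. Tables and plots used Python 3.11.15, pandas 2.3.3, numpy 2.4.6 and matplotlib 3.10.9.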

Additional observations from a re-analysis of the deposited data

How the results depend on the processing

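The 2 Fgf10 regions kept their direction in all 13 alternatives of the fit. Among these, the fit without the filter could not differ, because the filter removed 0 regions. The upstream region passed in 11 and the intragenic region in 10, and over all 13 their adjusted p-values ran from 0.000841 to 0.0991 and from 0.00580 to 0.146. Over the 6 fits that each left out 1 library, the number of members past the threshold was 0 to 4, with 0 to 1 more open and 0 to 3 less open at P0. The 0 came without E14.5 replicate 3 (339 regions passed in the whole table) and without P0 replicate 1 (474 regions). The 4 came without E14.5 replicate 2, with 1 Fgf20 and 1 Fgfr2 region beside the Fgf10 regions, and 2987 regions passed in the whole table there, against 2059 with all libraries. Relative to the promoter region of Fgf10, an alternative chosen after seeing the data, the log2 change over these 6 sets ran from -1.45 to -1.13 upstream and from -1.18 to -0.94 in the gene. With a window of 10 kb, or the gene body alone, 1 member passed and it was lower at P0, since the upstream region falls outside these windows. Of the 240 pathway regions, 1 to 9 passed without 1 library, while 0.779% to 6.86% of all regions did. The 9 came without P0 replicate 3, where 5.16% of all regions passed.

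The number of members with stages apart was 5 of 19 with the 10 kb window and 4 of 13 in gene bodies, against 24.2% of all regions. Without promoter regions it was 7 of 22 (31.8%), against 27.8% of all regions outside promoters. It was 8 to 16 of 41 without 1 library, where fewer libraries must lie apart and 28.9% to 41.1% of all regions did. The share of members was below that of all regions in each of these 6 sets (39.0% and 41.1% without P0 replicate 3). The median log2 fold change of members ran from -0.13 to 0.057 without 1 library. In 19 of 325 alternative values of 25 named regions the sign changed, and the 325 include the fit without the filter. The changes fell at 11 regions whose log2 fold change was at most 0.20 in size and that passed in no setting. With total-count scaling the Fgfr2 promoter had 0.043, the Spry1 promoter 0.0089 and the region 22.6 kb from Spry1 6.2e-05. Without 1 library, the Fgf10 promoter ran from -0.036 to 0.15 and the Fgf10 region at +17.9 kb from -0.00028 to 0.23. In the same fits the promoter of ENSMUSG00000098431 near Fgf20 ran from -0.45 to 0.037, the Fgfr1 promoter from -0.22 to 0.015 and the D830025C05Rik promoter from -0.21 to 0.15. The Fgfr2 promoter ran from -0.19 to 0.10, the upstream Fgfr2 region from -0.029 to 0.25 and the second Fgfrl1 promoter from -0.043 to 0.33. The Spry1 promoter ran from -0.27 to 0.18, the region 22.6 kb from Spry1 from -0.18 to 0.017 and the Spry2 promoter from -0.12 to 0.41. The difference between the stages in the sum over a gene moved by less than its spread in all 80 alternatives, but its sign changed in 13 of them, at Fgfr1, Spry1, Spry2 and Spry4. At Spry2 it was 0.611 CPM (P0 minus E14.5), and -18.3 CPM without P0 replicate 3.

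Deviations of same-numbered libraries from their stage means correlated by 0.0666, -0.14 and 0.0767, and those of other pairs by -0.24 to 0.19. With 3 libraries per stage these values cannot show whether same-numbered libraries shared a batch. With the replicate block 2 members passed, both lower at P0, and 6 pathway regions, with 4.21% of all regions. The block cannot change which stages lie apart, so no such count was made. Of the simulated 2-fold changes 27.0% were called. There 200 of 43523 regions were changed, while 2059 passed in the data, so this share does not give the sensitivity of the real fit. Of the 39 members that did not pass, the 95% interval of the fold change lay within 2-fold for 29 and reached it for 10, at Fgf9, Fgf20, Fgfr2, Spry1 and Spry2.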

Other observations

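The deposited table also lists predicted target genes for some regions, with no method given in the sources used here. Of the 20 members with such an entry whose genes are in the RefSeq table, 0 named a gene on their own chromosome, and over all regions 134 of 18697 did (0.717%). For this reason these entries were used only to pair gene identifiers with names, and no region was assigned to a gene by them.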
